A study of Saccharomyces cerevisiae with 8 samples.

Results

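The genes of methionine, cysteine and sulfate assimilation were followed in budding yeast (Saccharomyces cerevisiae, strain BY4741) with and without TRM2, grown with and without hygromycin B. TRM2 encodes the methyltransferase that makes 5-methyluridine in the T loop of tRNAs, and hygromycin B is an aminoglycoside that blocks translation elongation. The 36 genes were chosen by name, as the known enzymes, carriers and regulators of the pathway, from the 7127 features of the expression table. That rule uses names and no measured value, but the list was drawn up with earlier results of these data known. They comprised 8 genes of sulfate activation and reduction, 7 of homocysteine, methionine and cysteine synthesis, 5 of the S-adenosylmethionine (SAM) cycle, 8 transporters, 2 enzymes that release sulfur from organic compounds and 6 regulators. Poly(A) RNA was sequenced from 8 cultures, 2 biological replicates in each of 4 groups. The groups were Trm2KO (the TRM2 knockout) with 50 µg/mL hygromycin B, Trm2KO without the drug, WT with 50 µg/mL hygromycin B, and WT without the drug, all in rich YPD medium. The labels state 200 µg/mL Geneticin in the medium of the knockout and state none for WT, so the deletion and Geneticin cannot be told apart. Cultures with hygromycin B were harvested at an OD600 of 0.4, whereas the general growth protocol gives a higher density, so drug and density at harvest cannot be told apart either. Each culture was started from a colony, and the labels do not say whether the knockout strain was 1 clone. All groups carry the deletion of MET17 that is part of BY4741. MET17 encodes the enzyme that joins sulfide to O-acetylhomoserine, and it was left out of the 36 genes.

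Yeast takes up sulfate, activates it with ATP, reduces it to sulfide in several steps and fixes the sulfide into homocysteine, from which methionine and cysteine are made. Methionine is converted to SAM, the methyl donor of the cell, and the homocysteine left after methyl transfer is recycled. The pathway is switched on when methionine, cysteine and SAM run low, through the activator Met4, which has no DNA-binding activity of its own and is brought to promoters by Cbf1 with Met28 and by the zinc-finger proteins Met31 and Met32. When sulfur amino acids are plentiful, the ubiquitin ligase subunit Met30 holds Met4 inactive. A cell without MET17 lacks the main enzyme that makes homocysteine from sulfide and is usually grown with methionine or a related compound in its medium.

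TRM2 was listed at 0 in all 4 knockout libraries and had 158 and 152 normalised FPKM in WT with hygromycin B and 116 and 122 in untreated WT. MET17, LEU2 and URA3, which BY4741 lacks, were listed at 0 in all 8 libraries. HIS3 was checked with them and was not at 0, with 34.4 to 54.0 normalised FPKM over the 8 libraries. The values are FPKM (fragments scaled to gene length and to the fragments of the library), divided by one scale factor per library to give normalised FPKM. The scale factors ran between 0.611 and 1.44, and features with ribosomal DNA names took 2.01% to 19.3% of the FPKM sum of a library. Treated WT had the highest scale factors (1.43 and 1.44) and low ribosomal shares (2.68% and 2.39%). Each other group held a library with a high share: 12.2% in treated Trm2KO, 19.3% in untreated Trm2KO and 15.8% in untreated WT. The depth in reads is unknown, since the table gives FPKM. Over all 6439 features tested, replicates correlated at r = 0.984 to 0.989 across genes. All 36 sulfur genes passed the filter of a mean of at least 1 FPKM.

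The promoters are shown first because the regulators of the pathway bind known letters in them. Both strands were searched for CACGTG, the palindrome bound by Cbf1, for TGTGGC, the core bound by Met31 and Met32, and for AAACTGTGG, the longer Met31/Met32 form, which overlaps the core wherever a C follows it. In the 250 bases before to 50 bases after the start codon, CACGTG was present in 10 of the 36 genes (27.8%) and in 2.91% of 6020 promoters of the R64 annotation, and TGTGGC in 14 (38.9%) and 7.81%. The long form was present in 6 (16.7%) and 0.432%, and CACGTG together with TGTGGC in 6 (16.7%) and 0.382%. TGACTC, the letters bound by the general amino acid regulator Gcn4, was present in 8 (22.2%) and 7.96%. In a window of the 500 bases before the start codon, added after the data had been seen, CACGTG was present in 21 genes (58.3%) against 6.21% of 6019 promoters, TGTGGC in 25 (69.4%) against 14.2%, the long form in 12 (33.3%) against 0.847%, and CACGTG together with TGTGGC in 15 (41.7%) against 1.15%. MHT1 and MMP1 share their TGTGGC and long-form matches, so the same letters are counted for both genes. A match is a description of letters and not a measured binding site.

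The stretches below are those of the 10 genes in which CACGTG and a Met31/Met32 motif lie at most 37 bases apart, together with MHT1, which rose the most in WT. They are read 5′ to 3′ in the direction of the gene from the RefSeq R64 genome, with the motif letters in capitals. The genome build of the expression table is not given in the sources used here. MHT1 and MMP1 are divergent neighbours on chromosome XII with 342 bases between their coding regions, and the MHT1 stretch is, read on the other strand, also the MMP1 stretch. It holds a long form and a core in the same direction with 19 bases between them.
MHT1, chrXII:17749-17802, minus strand: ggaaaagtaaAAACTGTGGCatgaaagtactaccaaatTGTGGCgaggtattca
MET14, chrXI:439562-439623, minus strand: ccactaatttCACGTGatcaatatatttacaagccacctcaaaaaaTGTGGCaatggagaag
MET16, chrXVI:877774-877820, minus strand: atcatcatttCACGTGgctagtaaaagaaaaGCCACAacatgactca
MET10, chrVI:213071-213122, plus strand: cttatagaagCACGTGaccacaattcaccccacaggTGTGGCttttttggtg
MET2, chrXIV:116986-117038, plus strand: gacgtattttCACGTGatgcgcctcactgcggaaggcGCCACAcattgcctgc
MET30, chrIX:268464-268503, plus strand: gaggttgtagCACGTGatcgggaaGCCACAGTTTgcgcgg
SAM2, chrIV:1454746-1454797, minus strand: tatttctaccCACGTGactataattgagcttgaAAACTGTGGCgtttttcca
SUL2, chrXII:323200-323235, plus strand: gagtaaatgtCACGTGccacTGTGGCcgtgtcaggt
CYS3, chrI:130573-130616, plus strand: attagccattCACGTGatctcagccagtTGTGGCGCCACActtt
MET22, chrXV:207253-207321, minus strand: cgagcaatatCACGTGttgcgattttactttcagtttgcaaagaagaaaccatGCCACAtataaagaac
MET5, chrX:683545-683599, minus strand: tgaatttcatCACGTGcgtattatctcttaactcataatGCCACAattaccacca
The first 7 genes of this set rose with hygromycin B in WT by the test described next, and the last 4 (SUL2, CYS3, MET22 and MET5) did not. The spacing between the paired motifs was 4 bases in SUL2, 8 in MET30, 12 in CYS3, 15 in MET16, 17 in SAM2, 20 in MET10, 21 in MET2, 23 in MET5, 30 in MET14 and 37 in MET22. In CYS3 a TGTGGC and its reverse complement abut. STR2, SUL1, MET31 and SAM4 had none of these 3 motifs in the 500 bases.

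Hygromycin B in WT was accompanied by higher transcripts of all 6 regulators and of 5 of 8 genes of sulfate activation and reduction, MET3 only narrowly. Of the carriers 4 of 8 rose (50.0%), a share not far from the 40.4% of all features. Transcripts of CYS4, SAM1, SAH1, SAM4 and CYS3, the 5 most abundant of the set in untreated WT, were lower. Of the 36 genes 21 rose (58.3%) and 9 fell (25.0%), where over all features tested 40.4% rose and 38.4% fell, and the median log2 difference was 0.45, against 0.02 over all features. Differences of at least 2-fold were called upward for 15 genes (41.7%, against 14.7% of all features) and downward for 4 (11.1%, against 14.6%). The 12 genes named in full in this comparison are MHT1, MET28, MET2, MMP1, STR3 and MET32 upward and SAH1, CYS4, MET8, SAM4, CYS3 and MET6 downward. Calls are from limma on log2(normalised FPKM + 1) with a two-sided Benjamini-Hochberg adjusted p under 0.05 over all features, each error is the standard error (SE), and fold changes on this scale understate those of low genes. With 2 cultures a group, the test rests on a spread pooled over all 8 libraries. The treated WT replicates differed most, by a median absolute log2 difference of 0.13 over all features, against 0.0576 to 0.0774 in the other groups. The pooled error can therefore be too small for comparisons that include treated WT. On the FPKM as deposited, with no scale factors, 19 genes rose and 2 fell (CYS4 and SAH1), and in TPM recomputed without the ribosomal features 26 rose and 7 fell. Of all 6439 features 2550 were called on the FPKM as deposited and 4996 in TPM, with 85.6% and 65.9% of these upward. The scaling sets the typical gene as unchanged, so a change in RNA per cell shared by all genes cannot be told apart from none.

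In sulfate activation and reduction, 5 of 8 genes rose (62.5%, against 40.4% of all features) and 2 fell (25.0%, against 38.4%) with hygromycin B in WT. MET14, the kinase of adenylyl sulfate, had 217 and 186 normalised FPKM with hygromycin B and 62.5 and 56.9 without it (log2 difference 1.74 ± 0.10, adjusted p = 7.96e-06). MET16, the reductase that makes sulfite, had 155 and 142 with the drug and 55.4 and 57.7 without (log2 difference 1.38 ± 0.06, adjusted p = 4.33e-06). MET1, which methylates the precursor of the siroheme cofactor, had 93.2 and 96.2 with the drug and 27.0 and 26.0 without (log2 difference 1.80 ± 0.05, adjusted p = 9.07e-07). In each of these 3 genes both drug-treated WT libraries lay well above both untreated ones. Separation of replicates alone is a weak criterion with 2 cultures a group, as SEO1 and JLP1 also separated in this comparison and were not called. The share of all features that separated in this way was not counted. The subunits of sulfite reductase moved in opposite directions. MET10, the alpha subunit, had 57.4 and 60.1 with the drug and 20.6 and 20.5 without (log2 difference 1.47 ± 0.05, adjusted p = 1.86e-06), and MET5, the beta subunit, had 9.50 and 9.25 with it and 15.4 and 15.1 without (log2 difference -0.65 ± 0.07, adjusted p = 0.000146). MET8, which completes siroheme, had 6.31 and 5.37 with the drug and 13.0 and 14.0 without (log2 difference -1.09 ± 0.22, adjusted p = 0.00311). MET3, the ATP sulfurylase that opens the pathway, had 27.1 and 26.7 with the drug and 24.7 and 23.6 without. Its log2 difference of 0.15 ± 0.05 passed narrowly (adjusted p = 0.0422), and the call ended when any 1 of the 8 libraries was left out (adjusted p = 0.0535 to 0.194). MET22, the phosphatase that clears the by-product of sulfate reduction, was not called (144 and 138 with the drug and 142 and 151 without).

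In homocysteine, methionine and cysteine synthesis 3 of 7 genes rose (42.9%, against 40.4% of all features) and 3 fell (42.9%, against 38.4%) in WT with hygromycin B. Both shares were near those of all features. MET2, the homoserine acetyltransferase that makes the acceptor for sulfide, had 179.9 and 162 normalised FPKM with the drug and 30.4 and 29.9 without, 5.67-fold as much (log2 difference 2.46 ± 0.07, adjusted p = 1.12e-06). STR3, the cystathionine beta-lyase, had 27.7 and 26.3 with the drug and 5.24 and 4.62 without (log2 difference 2.24 ± 0.10, adjusted p = 4.05e-06), and STR2, the cystathionine gamma-synthase, rose by 1.26 ± 0.06. STR2 and STR3 carry sulfur from cysteine towards homocysteine, whereas CYS4 and CYS3, cystathionine beta-synthase and gamma-lyase, carry it from homocysteine to cysteine. CYS4 had 227 and 256 with the drug and 780.2 and 823 without (log2 difference -1.73 ± 0.07, adjusted p = 3.22e-06), and CYS3 had 124 and 174 with it and 288 and 298 without (log2 difference -0.99 ± 0.21, adjusted p = 0.00451). The transcripts of one direction thus rose while those of the other fell, with no overlap of replicates in any of the 4 genes. For STR3, CYS4 and CYS3 the lack of overlap was a condition of being named in full. MET6, the methionine synthase, had 46.5 and 46.6 with the drug and 87.7 and 84.7 without (log2 difference -0.87 ± 0.06, adjusted p = 1.36e-05). MET13, the methylenetetrahydrofolate reductase that supplies its methyl group, was not called (16.2 and 14.9 with the drug and 15.6 and 13.2 without).

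In the SAM cycle the homocysteine methyltransferases MHT1 and SAM4 moved apart. MHT1, which makes methionine from S-methylmethionine, had 153 and 148 normalised FPKM with hygromycin B and 14.8 and 13.9 without, 10.5-fold as much, the largest difference of the 36 genes in either direction (log2 difference 3.30 ± 0.06, adjusted p = 3.87e-07). SAM4, which does the same with SAM, had 149 and 159 with the drug and 326 and 319 without (log2 difference -1.06 ± 0.05, adjusted p = 4.33e-06). SAH1, the hydrolase that clears S-adenosylhomocysteine, had 122 and 141 with the drug and 466 and 467 without, 3.55-fold less (log2 difference -1.82 ± 0.08, adjusted p = 3.47e-06). Of the SAM synthetases, SAM1 had 392 and 461 with the drug and 593 and 672 without (log2 difference -0.57 ± 0.12, adjusted p = 0.00505), a direction that flips to 0.04 on the FPKM as deposited. SAM2 had 158 and 148 with the drug and 114 and 111 without (log2 difference 0.44 ± 0.09, adjusted p = 0.00366). In untreated WT, SAM1 was the more abundant of these synthetases per length, and also in treated WT. Their coding sequences are 82.8% identical with a longest shared run of 59 bases, so reads could in part be split between them.

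Of the 8 transporters 4 rose with hygromycin B in WT (50.0%, against 40.4% of all features) and 1 fell (12.5%, against 38.4%). The share that rose was not far from that of all features for a set of 8. MMP1, the S-methylmethionine permease beside MHT1, had 169 and 192 normalised FPKM with the drug and 37.3 and 34.8 without, 5.01-fold as much (log2 difference 2.29 ± 0.10, adjusted p = 3.56e-06). Its paralogue SAM3, the SAM permease, had 52.1 and 62.3 with the drug and 40.6 and 41.2 without (log2 difference 0.47 ± 0.09, adjusted p = 0.00275). Both carriers were higher in both treated libraries, by very different factors. Of the sulfate permeases, SUL1 had 34.5 and 34.9 with the drug and 15.1 and 15.2 without (log2 difference 1.15 ± 0.06, adjusted p = 5.47e-06), and SUL2 had 14.1 and 13.8 with it and 14.0 and 14.1 without and was not called (log2 difference -0.01 ± 0.07, 95% interval -0.18 to 0.16). Of the methionine permeases, the low-affinity MUP3 had 46.8 and 53.5 with the drug and 24.7 and 22.5 without (log2 difference 1.06 ± 0.11, adjusted p = 0.000124). The high-affinity MUP1 had 149 and 196 with the drug and 166 and 173 without, so that its replicates overlapped. Its difference was 0.21 without treated WT library 1 and -0.19 without treated WT library 2, each past the threshold (adjusted p = 0.0163 and 0.023), so no direction is given for it. OPT1, which carries glutathione and oligopeptides, had 42.0 and 48.3 with the drug and 58.5 and 56.8 without (log2 difference -0.35 ± 0.07, adjusted p = 0.00346), which became 0.26 on the FPKM as deposited. The putative permease SEO1 was low everywhere (2.32 to 5.86 normalised FPKM over the 8 libraries) and was not called, although its difference was 0.53 without treated WT library 2 (adjusted p = 0.0205). BDS1, a sulfatase, rose by 0.68 ± 0.06, and JLP1, a sulfonate dioxygenase, was not called (log2 difference 0.22 ± 0.11).

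All 6 regulators rose with hygromycin B in WT (100%, against 40.4% of all features), with a median log2 difference of 1.08. MET32 had 93.2 and 89.1 normalised FPKM with the drug and 21.0 and 22.7 without, 4.17-fold as much (log2 difference 2.01 ± 0.06, adjusted p = 1.36e-06). Its partner MET31 had 208 and 171 with the drug and 94.0 and 89.5 without (log2 difference 1.03 ± 0.09, adjusted p = 5.95e-05). CBF1 had 167 and 170.5 with the drug and 75.2 and 77.5 without (log2 difference 1.13 ± 0.04, adjusted p = 2.06e-06). These DNA-binding factors were all higher in both treated libraries than in both untreated ones, a separation also present in SEO1 and JLP1, which were not called. MET30, which restrains Met4, had 136 and 147 with the drug and 71.8 and 75.9 without (log2 difference 0.93 ± 0.07, adjusted p = 3.62e-05). MET4 itself had 138 and 149 with the drug and 112 and 115 without, the smallest difference of the 6 (log2 difference 0.34 ± 0.05, adjusted p = 0.00103). MET28, the bZIP partner of Met4 and Cbf1, had 111 and 100.0 with the drug and 15.4 and 14.2 without, 7.12-fold as much. Its log2 difference of 2.75 ± 0.95 carried a wide error (adjusted p = 0.0338), and the call ended when any 1 of the 4 WT libraries was left out (adjusted p = 0.093 to 0.134) and with a pseudocount of 0.1 (adjusted p = 0.105). The wide error goes with 1 knockout library, in which MET28 had 0.318, and all 8 libraries share the estimate of the spread.

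**Figure D1:**
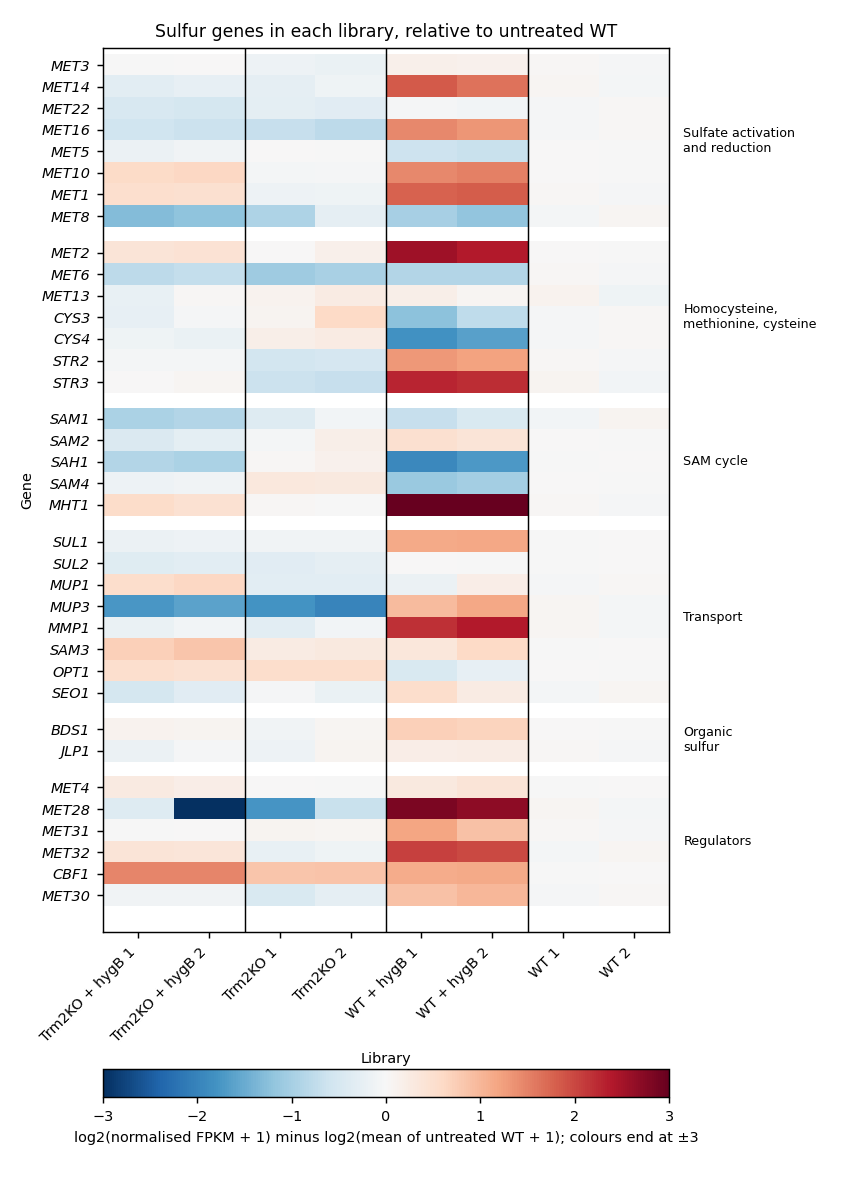
Each row is a gene and each column a library, with Trm2KO left of WT and hygromycin B left of no drug. Colour is log2(normalised FPKM + 1) minus the log2 of the untreated WT mean plus 1, ending at 3 in each direction. The 2 treated WT columns hold the strongest reds (MHT1, MET28, MET2, MMP1, STR3, MET32) and are blue in SAH1 and CYS4. The darkest blue is MET28 in treated Trm2KO library 2, MUP3 is blue in all 4 Trm2KO columns, and CBF1 is red in every column but those of untreated WT.

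The genes with the highest levels per length fell while many lower ones rose. The summed level of the 36 genes was 3458 and 3498 normalised FPKM in treated Trm2KO, 3902 and 4280 in untreated Trm2KO, 3850 and 4003 in treated WT and 3922 and 4044 in untreated WT. In WT the sum thus overlapped between treated and untreated cultures although 21 genes rose. By role, the regulators summed to 854 and 826 in treated WT and 389 and 395 in untreated WT, and sulfate activation and reduction to 709.6 and 663 in treated WT and 361 and 365 in untreated WT. Homocysteine, methionine and cysteine synthesis, which CYS4 leads, summed to 734 and 786 in treated WT and 1254 and 1297 in untreated WT, and the SAM cycle to 972 and 1057 in treated WT and 1514 and 1584 in untreated WT.

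In Trm2KO the differences with the same drug lay between -1.01 and 0.89 on the log2 scale. With hygromycin B 14 of the 36 genes rose (38.9%, against 20.9% of all features) and 7 fell (19.4%, against 22.3%), with a median log2 difference of 0.02, against -0.02 over all features. A difference of at least 2-fold was called upward for 0 genes (1.12% of all features) and downward for 1, SAH1 (2.78%, against 1.16%). The largest rises were in MUP1, MET10, MET1, CBF1, MET32 and SAM3, among genes with at least 10 normalised FPKM, and the largest falls in SAH1, SAM1, SAM4, SAM2, CYS4 and MET22. Calls here were fewer without some libraries: 9 genes rose without untreated Trm2KO library 1 or treated Trm2KO library 2, and 3 fell without untreated Trm2KO library 2 and 4 without treated Trm2KO library 2. On the FPKM as deposited 0 genes rose and 0 fell, and in TPM without the ribosomal features 17 rose and 1, SAH1, fell. Of all 6439 features 105 were called on the FPKM as deposited and 2939 in TPM, with 78.1% and 85.9% of these upward. These counts of the sulfur genes therefore moved with the whole set of features.

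Among the transporters MUP1 had 247 and 262 normalised FPKM in treated Trm2KO and 137 and 136 in untreated Trm2KO (log2 difference 0.89 ± 0.12, adjusted p = 0.00224). SAM3 had 67.7 and 74.1 with the drug and 48.8 and 50.2 without (log2 difference 0.51 ± 0.09, adjusted p = 0.00598). The other 6 transporters were not called, among them MMP1 (31.4 and 34.3 with the drug and 28.6 and 33.9 without) and SUL1 (13.3 and 13.6 with and 14.0 and 14.1 without), both of which rose in WT. In sulfate reduction MET10 had 31.0 and 32.1 with the drug and 19.7 and 20.1 without (log2 difference 0.64 ± 0.05, adjusted p = 0.000534), and MET1 had 38.2 and 37.6 with it and 23.8 and 24.3 without (log2 difference 0.64 ± 0.05, adjusted p = 0.000474). MET14 (47.7 and 50.2 with the drug and 49.1 and 54.6 without) and MET16 (37.1 and 35.6 with and 34.8 and 32.3 without) were not called. MET22 had 105 and 101 with the drug and 118 and 116 without (log2 difference -0.19 ± 0.05, adjusted p = 0.0269), and MET5, BDS1 and JLP1 were not called. The MET22 call ended without any 1 of the 4 Trm2KO libraries (adjusted p = 0.0668 to 0.152), and the direction flips to 0.22 on the FPKM as deposited and to 0.04 in TPM without the ribosomal features. MET3 rose by 0.18 ± 0.05 and MET8 fell by 0.65 ± 0.22, both narrowly (adjusted p = 0.0402 for MET3 and 0.0497 for MET8). The MET3 call was lost without any 1 of 6 libraries and the MET8 call without any 1 of 7.

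In the SAM cycle of treated Trm2KO, SAH1 had 252 and 239.7 normalised FPKM, against 477 and 514 in untreated Trm2KO, 2.01-fold less (log2 difference -1.01 ± 0.08, adjusted p = 0.000514). SAM1 had 329.6 and 346 with the drug and 486 and 596 without (log2 difference -0.67 ± 0.12, adjusted p = 0.00716), and SAM2 had 82.8 and 91.9 with it and 108 and 126 without (log2 difference -0.42 ± 0.09, adjusted p = 0.0115). SAM2, which rose in treated WT, thus fell in treated Trm2KO, although its call there was lost without untreated Trm2KO library 2 or treated Trm2KO library 1 (adjusted p = 0.0537 and 0.0701). The SAM2 fall also lost its call in TPM without the ribosomal features (-0.19, adjusted p = 0.154) and on the FPKM as deposited (-0.0147, adjusted p = 0.997). SAM4 had 292 and 298 with the drug and 401 and 395 without (log2 difference -0.43 ± 0.05, adjusted p = 0.00138), and MHT1 had 21.3 and 20.0 with it and 14.8 and 14.3 without (log2 difference 0.48 ± 0.06, adjusted p = 0.00181). CYS4 had 728 and 696 with the drug and 899.5 and 945 without (log2 difference -0.37 ± 0.07, adjusted p = 0.00907). The CYS4 call was lost without untreated Trm2KO library 2 or treated Trm2KO library 2 (adjusted p = 0.056 and 0.0633), and its direction flips to 0.04 on the FPKM as deposited. MET2, STR2, STR3 and MET6 rose by 0.28 to 0.71, and CYS3 and MET13 were not called, although CYS3 passed at -0.74 without untreated Trm2KO library 1 (adjusted p = 0.0487). The MET2 and MET6 calls were lost without untreated Trm2KO library 1 (adjusted p = 0.0577 and 0.0516) or treated Trm2KO library 2 (adjusted p = 0.0723 and 0.0701).

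Of the regulators 4 of 6 rose in treated Trm2KO (66.7%, against 20.9% of all features). CBF1 had 212 and 213 normalised FPKM with the drug and 137 and 139.7 without (log2 difference 0.61 ± 0.04, adjusted p = 0.000324), and MET32 had 28.8 and 28.5 with it and 18.7 and 19.9 without (log2 difference 0.55 ± 0.06, adjusted p = 0.00137). MET30 had 68.7 and 69.0 with the drug and 53.9 and 61.1 without (log2 difference 0.26 ± 0.07, adjusted p = 0.0309), and MET4 had 136 and 129.5 with it and 115 and 112 without (log2 difference 0.23 ± 0.05, adjusted p = 0.0162). The replicates of these 4 genes did not overlap, but the MET4 call was lost without any 1 Trm2KO library (adjusted p = 0.0535 to 0.0997) and the MET30 call without any 1 of 3 of them (adjusted p = 0.112 to 0.138). MET31 had 91.1 and 92.9 with the drug and 96.5 and 95.3 without and was not called (log2 difference -0.06 ± 0.09, 95% interval -0.28 to 0.16). Replicates did not overlap in MET31 either, nor in MET16, MET5 and SUL1, none of them called, so a lack of overlap says little here. MET28 had 11.2 and 0.318 with the drug and 3.61 and 9.00 without, overlapping values, and was not called (log2 difference -0.76 ± 0.95). Without treated Trm2KO library 1 that difference was -2.37 and passed (adjusted p = 0.0186), and then the lone treated library, with 0.318, decided it.

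**Figure D2:**
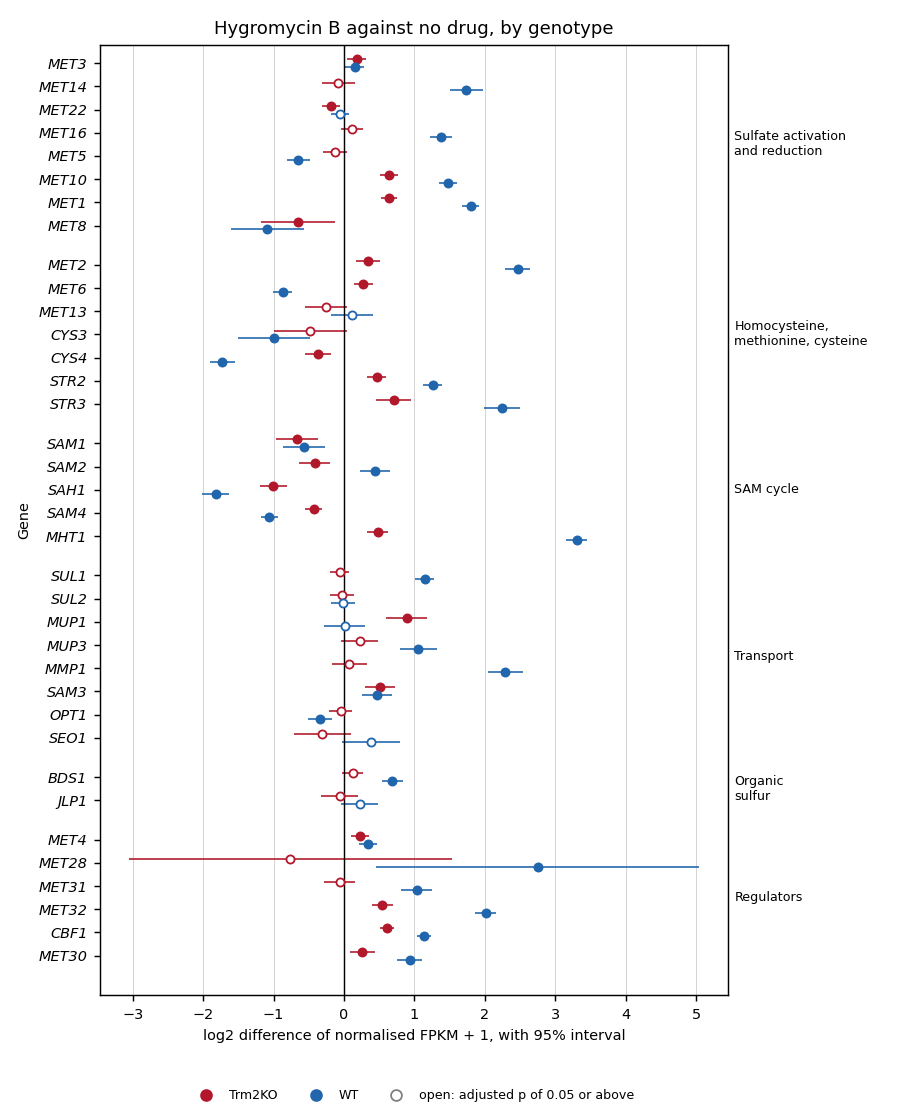
The log2 difference of hygromycin B against no drug is plotted for each gene with its 95% interval, in Trm2KO (red) and in WT (blue), and open circles did not pass the threshold. The blue points reach up to 3.30 for MHT1 and down to -1.82 for SAH1, while the red points lie between -1.01 and 0.89.

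The difference between these 2 responses was tested in the same fit, as the response in Trm2KO minus the response in WT. It was negative for 18 of the 36 genes (50.0%, against 33.9% of all features) and positive for 7 (19.4%, against 30.6%), with a median of -0.54 on the log2 scale, against -0.03 over all features. On the FPKM as deposited 469 of all features were called, 30.1% of them upward, and in TPM without the ribosomal features 3884, 41.9% of them upward. Of the 36 genes 6 were then negative on the FPKM as deposited (MHT1, MMP1, MET2, MET14, STR3 and MET28) and 0 positive. In TPM 20 of the 36 were negative and 6 positive, with the OPT1 call lost (adjusted p = 0.146). The most negative were MHT1 (-2.83 ± 0.09, adjusted p = 8.48e-06), MMP1 (-2.22 ± 0.14, adjusted p = 6.09e-05), MET2 (-2.13 ± 0.10, adjusted p = 2.62e-05), MET14 (-1.82 ± 0.14, adjusted p = 9.46e-05), STR3 (-1.53 ± 0.15, adjusted p = 0.000225) and MET32 (-1.47 ± 0.09, adjusted p = 5.04e-05). All of them rose in WT, and in Trm2KO they rose by less or were not called. MET16, SUL1, MET1, SAM2, MUP3, MET10, STR2, SEO1 and BDS1 followed with -1.26 to -0.56, of which the low SEO1 lost its call without any 1 of 7 libraries (adjusted p = 0.0502 to 0.119). The positive differences were in CYS4 (1.36 ± 0.11, adjusted p = 0.000108), MET6 (1.15 ± 0.08, adjusted p = 7.1e-05), MUP1 (0.88 ± 0.17, adjusted p = 0.0042), SAH1 (0.82 ± 0.11, adjusted p = 0.00106), SAM4 (0.63 ± 0.07, adjusted p = 0.000428), MET5 (0.52 ± 0.10, adjusted p = 0.00376) and OPT1 (0.30 ± 0.10, adjusted p = 0.0371). CYS4, SAH1, SAM4 and MET5 fell more in WT, MET6 fell in WT and rose in Trm2KO, and MUP1 rose in Trm2KO. The OPT1 call was lost without any 1 of the 6 libraries other than the treated WT ones (adjusted p = 0.0693 to 0.114). Of the regulators MET31 (-1.09 ± 0.13), MET30 (-0.67 ± 0.10) and CBF1 (-0.52 ± 0.06) also differed (adjusted p = 0.00053, 0.00166 and 0.000478), and MET4 did not pass (-0.11 ± 0.08, adjusted p = 0.229). MET28 had the most negative value of all and did not pass (-3.51 ± 1.35, adjusted p = 0.0579), but passed at -5.12 without treated Trm2KO library 1 (adjusted p = 0.00156) and at -1.91 without treated Trm2KO library 2 (adjusted p = 0.0329).

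Without the drug, Trm2KO differed from WT in fewer of these genes. Of the 36 genes 3 were higher in Trm2KO (8.33%, against 23.2% of all features) and 9 were lower (25.0%, against 19.8%), with a median log2 difference of -0.11, against 0.03 over all features. The share of lower genes was near that of all features. On the FPKM as deposited 2 genes were lower (MUP3 and MET28) and 0 higher, and in TPM without the ribosomal features 16 and 2. Of all 6439 features 163 were called on the FPKM as deposited and 2462 in TPM, with 14.1% and 19.1% of these upward. MUP3, the low-affinity methionine permease, had 6.05 and 5.20 normalised FPKM in Trm2KO and 24.7 and 22.5 in WT, 4.19-fold less (log2 difference -1.89 ± 0.11, adjusted p = 0.000151). MET6, the methionine synthase, had 40.6 and 43.1 in Trm2KO and 87.7 and 84.7 in WT, 2.06-fold less (log2 difference -1.02 ± 0.06, adjusted p = 0.000124). MET16 had 34.8 and 32.3 in Trm2KO and 55.4 and 57.7 in WT (log2 difference -0.74 ± 0.06, adjusted p = 0.000512). Both Trm2KO libraries lay below both WT libraries in each of these genes, a separation that was a condition of naming them. STR2 had 30.6 and 31.8 in Trm2KO and 46.5 and 43.8 in WT (log2 difference -0.52 ± 0.06, adjusted p = 0.00105), MET30 had 53.9 and 61.1 in Trm2KO and 71.8 and 75.9 in WT (log2 difference -0.36 ± 0.07, adjusted p = 0.01), and MET22 had 118 and 116 in Trm2KO and 142 and 151 in WT (log2 difference -0.32 ± 0.05, adjusted p = 0.00437). MET3, SUL2 and the low STR3 fell by 0.18, 0.31 and 0.66. The MET30 call was lost without untreated WT library 2 (adjusted p = 0.0589), the SUL2 call without any 1 of 3 libraries (adjusted p = 0.0706 to 0.0724) and the MET3 call without any 1 of 6 (adjusted p = 0.0739 to 0.187). The genes above WT were CBF1, with 137 and 139.7 in Trm2KO and 75.2 and 77.5 in WT (log2 difference 0.85 ± 0.04, adjusted p = 9.7e-05), OPT1, with 83.1 and 83.9 in Trm2KO and 58.5 and 56.8 in WT (log2 difference 0.53 ± 0.07, adjusted p = 0.00216), and SAM4, with 401 and 395 in Trm2KO and 326 and 319 in WT (log2 difference 0.30 ± 0.05, adjusted p = 0.0046). The SAM4 call ended in TPM without the ribosomal features (0.126, adjusted p = 0.213) and on the FPKM as deposited (0.00275, adjusted p = 1). SAM4 shares a run of 210 bases with YMR321C, which had 5.38 and 4.29 normalised FPKM in untreated Trm2KO and 18.0 and 14.0 in untreated WT, so reads could be split between them. MET4, MET31 and MET32 were not called (log2 differences -0.00 ± 0.05, 0.06 ± 0.09 and -0.17 ± 0.06), nor was MET28 (log2 difference -1.22 ± 0.95), which passed without either treated Trm2KO library (adjusted p = 0.0467 and 0.0465). Without either treated WT library 5 genes were higher, with CYS4 (adjusted p = 0.0274 and 0.0273) and SAM3 (adjusted p = 0.0152 and 0.0153) added, and MUP1 and MET1 passed as lower. MET8 passed at -0.93 without untreated Trm2KO library 2 (adjusted p = 0.0113).

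With hygromycin B in both genotypes the gap was wide. Of the 36 genes 23 were lower in Trm2KO than in WT (63.9%, against 39.9% of all features) and 9 were higher (25.0%, against 37.3%), with a median log2 difference of -0.52, against -0.03 over all features. On the FPKM as deposited 18 were lower and 0 higher, and in TPM without the ribosomal features 25 and 6, where the calls of CBF1, SAM3 and MUP1 as higher were lost (adjusted p = 0.303, 0.572 and 0.0692). Of all 6439 features 2128 were called on the FPKM as deposited and 4848 in TPM, with 16.6% and 34.4% of these upward. Differences of at least 2-fold were called downward for 14 genes (38.9%, against 13.8%) and upward for 1, CYS4 (2.78%, against 12.2%). This comparison shares its treated libraries with both drug responses, so it is not a further observation of them. MHT1 differed by -2.81 ± 0.06 (adjusted p = 5.3e-07), with 21.3 and 20.0 normalised FPKM in treated Trm2KO and 153 and 148 in treated WT, 7.28-fold less. MUP3 had 6.37 and 7.04 in treated Trm2KO and 46.8 and 53.5 in treated WT, 7.48-fold less (log2 difference -2.73 ± 0.11, adjusted p = 3.09e-06). MMP1, STR3 and MET2 differed by -2.42 ± 0.10, -2.20 ± 0.10 and -2.04 ± 0.07, and MET14 and MET16 by -2.02 ± 0.10 and -2.00 ± 0.06. The treated replicates of the 2 genotypes did not overlap in any of these genes. For all but MET14 and MET16 that was a condition of being named. Among the regulators MET32 (-1.64 ± 0.06, adjusted p = 2.75e-06), MET30 (-1.03 ± 0.07, adjusted p = 2.73e-05) and MET31 (-1.03 ± 0.09, adjusted p = 6.94e-05) were lower in treated Trm2KO, and MET4 was not called (-0.11 ± 0.05), although it passed at -0.16 without treated WT library 1 (adjusted p = 0.0282). CBF1 was higher in treated Trm2KO by 0.33 ± 0.04 (adjusted p = 0.000396), a direction that flips to -0.18 on the FPKM as deposited. MET28 was lower by -4.73 ± 0.95 (adjusted p = 0.00357), with 11.2 and 0.318 in treated Trm2KO and 111 and 100.0 in treated WT. Its reads cannot be told apart here from those of YIR017W-A, whose name places it beside MET28. YIR017W-A had 18.2 and 30.0 in treated Trm2KO and 106 and 94.95 in treated WT.

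The genes above treated WT were led by CYS4, with 728 and 696 normalised FPKM in treated Trm2KO and 227 and 256 in treated WT (log2 difference 1.56 ± 0.07, adjusted p = 5.67e-06). SAM4 (0.93 ± 0.05, adjusted p = 8.34e-06), SAH1 (0.90 ± 0.08, adjusted p = 7.2e-05), CYS3 (0.86 ± 0.21, adjusted p = 0.00894), OPT1 (0.82 ± 0.07, adjusted p = 5.89e-05), MUP1 (0.57 ± 0.12, adjusted p = 0.00453) and MET5 (0.51 ± 0.07, adjusted p = 0.000501) were also higher. OPT1 had 82.2 and 78.9 in treated Trm2KO and 42.0 and 48.3 in treated WT, and MUP1 had 247 and 262 in treated Trm2KO and 149 and 196 in treated WT. SAM3 was higher by 0.31 ± 0.09 (adjusted p = 0.018), which became -0.19 on the FPKM as deposited. The CYS3 and SAM3 calls were lost without treated WT library 1 (adjusted p = 0.0619 and 0.0573) or treated Trm2KO library 2 (adjusted p = 0.0545 and 0.106). Of the remaining genes that were lower, STR2, SUL1, MET1, MET10, SAM2, SEO1, BDS1, MET22, SAM1, SUL2, JLP1 and MET3 differed by -1.32 to -0.15, and the calls of SAM1, JLP1 and MET3 were lost without several of the libraries (adjusted p of 0.0509 to 0.234).

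**Figure D3:**
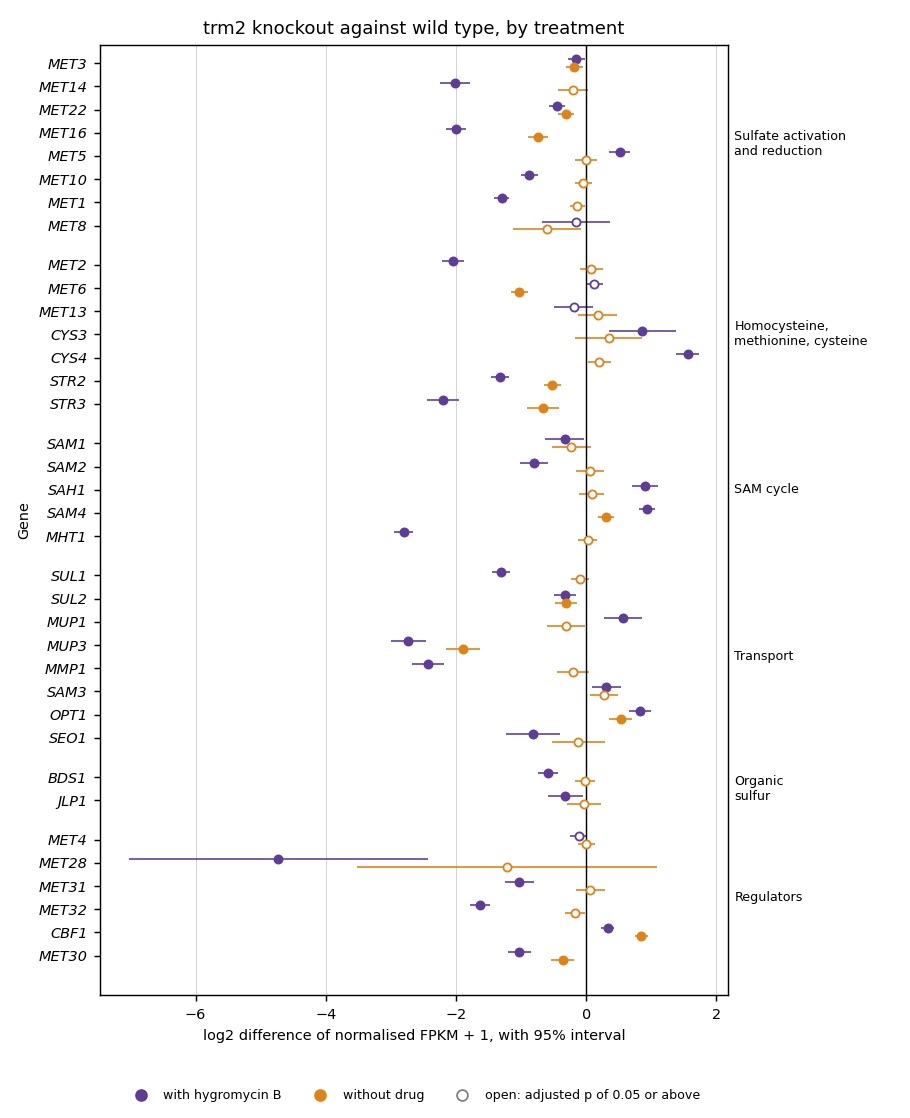
The log2 difference of Trm2KO against WT is plotted for each gene with its 95% interval, with hygromycin B (purple) and without the drug (orange), and open circles did not pass the threshold. The purple points reach -4.73 for MET28 and -2.81 for MHT1 and 1.56 for CYS4, while the orange points lie between -1.89 (MUP3) and 0.85 (CBF1). Reads of MET28 and YIR017W-A cannot be told apart.

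Ordered over the 4 groups, treated WT was the highest group, with both its libraries above all the others, in 21 of the 36 genes (58.3%, against 36% of all features). Untreated Trm2KO was the lowest in the same sense in 11 genes, and in 13.9% of all features. In treated Trm2KO several genes stood near the level of untreated WT: the ratio of the group means was 1.00 for MET31, 0.997 for MET3, 1.04 for STR3, 0.932 for MET30 and 0.911 for MMP1. It was 1.44 for MHT1 and 1.31 for MET32. Among the regulators CBF1 lay farthest above untreated WT, at 2.78. MET28 lay below it, at 0.388, with the low library 2, but its reads cannot be told apart from those of YIR017W-A. YIR017W-A was higher in treated Trm2KO (18.2 and 30.0) than in untreated WT (8.37 and 6.80). MUP3 was the lowest of the set, at 0.284. Related genes often differed in their response to the drug in WT: MHT1 rose and SAM4 fell, SAM2 rose and SAM1 fell, and SUL1 and MUP3 rose while SUL2 and MUP1 were not called. In the pairs MET32 and MET31, and MMP1 and SAM3, both genes rose, the first of each pair by more. The coding identity of these 6 pairs ran between 47.7% for MUP1 and MUP3 and 82.8% for SAM1 and SAM2, and apart from that last pair no shared run exceeded 24 bases.

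**Figure D4:**
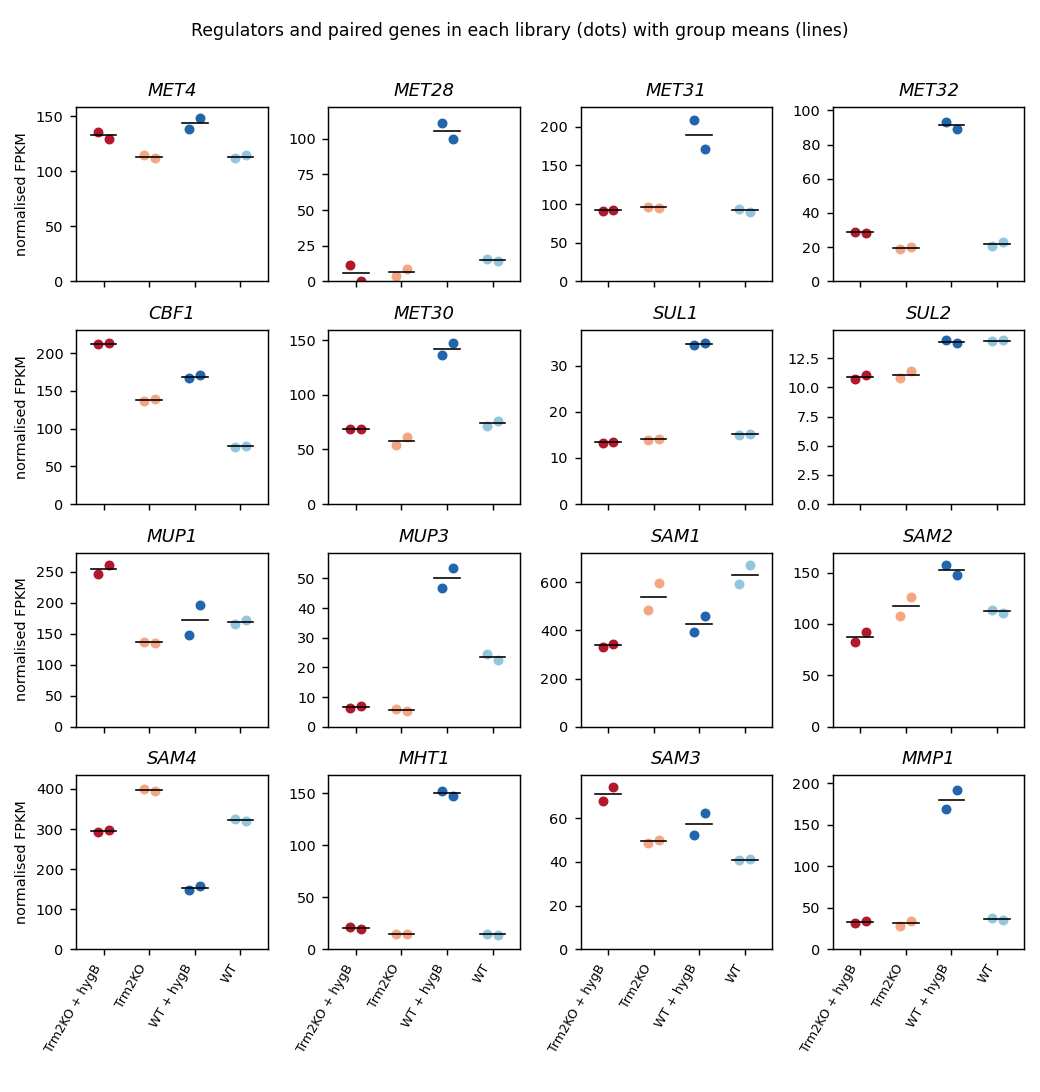
Dots are single libraries and lines are group means of normalised FPKM, for the 6 regulators and the related pairs, with Trm2KO left of WT and hygromycin B left of no drug in each panel. Treated WT stands above the other groups in MET28, MET31, MET32, MET30, SUL1, MUP3, SAM2, MHT1 and MMP1, narrowly in MET4, and below them in SAM4.

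A few values could include reads of a neighbour, because whether counting used the strand is not given in the sources used here. The table describes YNL276C as overlapping MET2, and YNL276C had 11.2 and 9.81 normalised FPKM in treated Trm2KO, 5.82 and 6.45 in untreated Trm2KO, 79.7 and 69.8 in treated WT and 6.63 and 5.66 in untreated WT. As in MET2, treated WT was highest and treated Trm2KO next. YIR017W-A, whose name places it beside MET28 and which was chosen after its values were seen, had 18.2 and 30.0 in treated Trm2KO, 10.9 and 7.48 in untreated Trm2KO, 106 and 94.95 in treated WT and 8.37 and 6.80 in untreated WT. In treated Trm2KO it was higher in library 2, where MET28 had 0.318, than in library 1. Reads of these genes and of MET2 and MET28 cannot be told apart here.

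The motif content was set beside the response in WT as a description. Of the 15 genes that rose at least 2-fold with hygromycin B in WT, 7 held both CACGTG and TGTGGC in the 500 bases before the start codon (46.7%), and 3 held neither them nor the long form (STR2, SUL1 and MET31). Of the other 21 genes 8 held both (38.1%), and of the 9 genes that fell 2 did (22.2%). CYS4 and MET6, which fell, held CACGTG and the long form without TGTGGC, and these counts leave them out. The shares therefore depend on which Met31/Met32 form is counted, and no order of the groups is read from them. MET3, MET22, SUL2 and MET5 held both and were among the genes with small or negative responses. The MHT1 and MMP1 stretch shown above holds the Met31/Met32 letters and no CACGTG lies in the 500 bases of either gene.

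**Figure D5:**
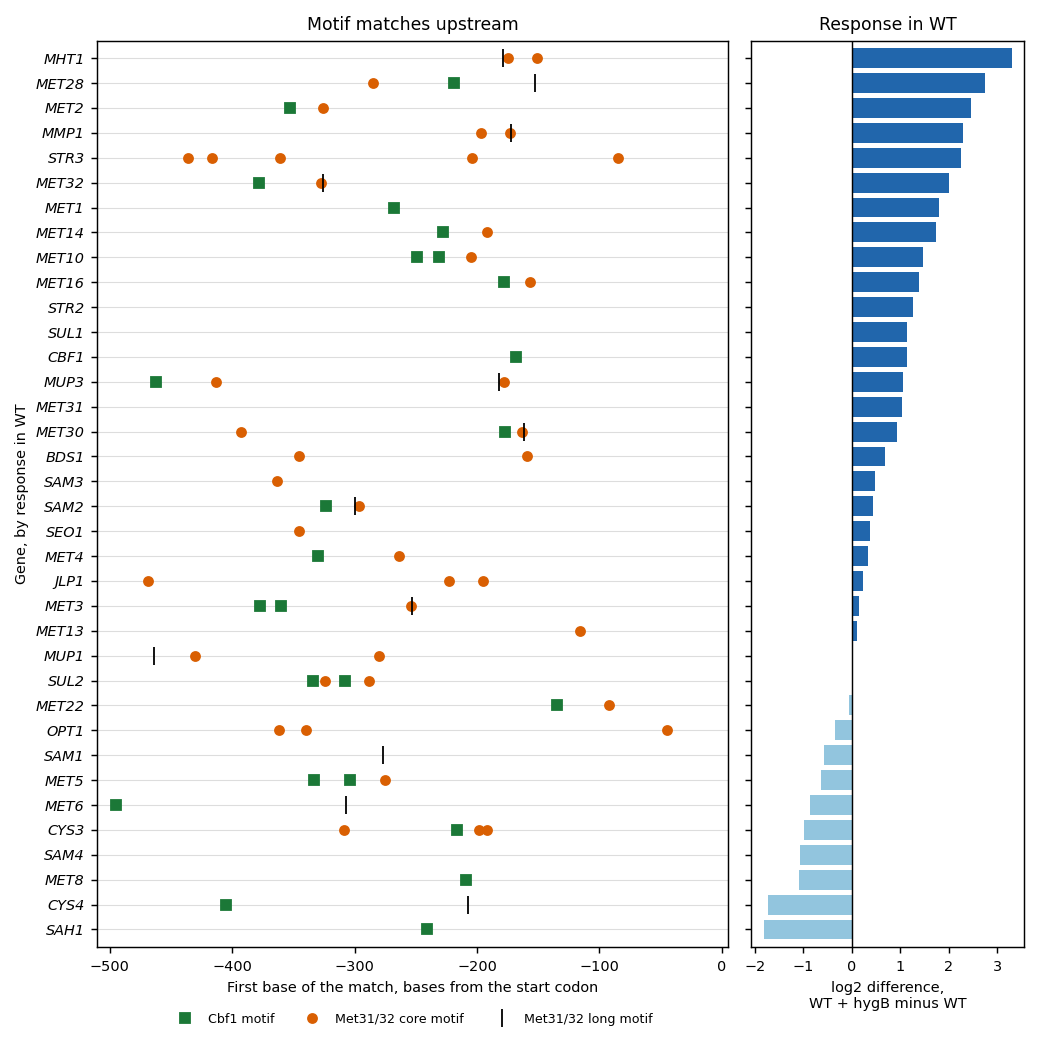
The left panel marks where each motif begins, in bases from the start codon, for the 36 genes ordered by their log2 difference with hygromycin B in WT, which the right panel gives as bars. Genes with Cbf1 (green) and Met31/Met32 (orange, and black for the long form) letters run down the whole order, between MHT1 at 3.30 and SAH1 at -1.82.

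Of 29 further genes tied to the pathway (folate and homoserine supply, cysteine and sulfite transport, methionine salvage, methyl transfer, glutathione synthesis and the Met30 ubiquitin ligase), 9 rose (31.0%, against 40.4% of all features) and 15 fell (51.7%, against 38.4%) with hygromycin B in WT. In Trm2KO 6 rose (20.7%, against 20.9% of all features) and 11 fell (37.9%, against 22.3%), so the share that rose there was that of all features. In WT the largest were SSU1, the sulfite exporter, with 26.2 and 23.7 normalised FPKM with the drug and 130.1 and 131 without (log2 difference -2.35 ± 0.06), ADI1 of the methionine salvage pathway, with 507 and 521 with the drug and 109 and 96.1 without (2.32 ± 0.07), and CHO2, the methyltransferase that uses SAM to make phosphatidylcholine, with 26.2 and 23.7 with the drug and 110.1 and 100.3 without (-2.03 ± 0.08). In Trm2KO they were HOM2 of homoserine synthesis, the adenosine kinase ADO1 and UTR4 of methionine salvage, which changed by -0.47 ± 0.07, -0.44 ± 0.07 and -0.44 ± 0.07. The response in Trm2KO minus that in WT was positive for 12 of the 29 (41.4%, against 30.6% of all features) and negative for 10 (34.5%, against 33.9%, about the same share). It was 2.19 ± 0.08 for SSU1, 2.19 ± 0.12 for CHO2 and -2.00 ± 0.10 for ADI1. Without the drug 10 were higher in Trm2KO (34.5%, against 23.2%) and 6 lower (20.7%, against 19.8%, again about the same share), and SSU1, the methionine sulfoxide reductase MXR1 and MEU1 of methionine salvage differed most from WT (-1.30 ± 0.06, -0.67 ± 0.09 and 0.53 ± 0.06). With the drug 14 were higher (48.3%, against 37.3%) and 10 lower (34.5%, against 39.9%), and CHO2, ADI1 and the cysteine transporter YCT1 differed most (2.698 ± 0.08, -2.16 ± 0.07 and -1.71 ± 0.15), all of them past the threshold.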

How the data were processed

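Poly(A) RNA of 8 yeast cultures was sequenced, and the authors deposited 1 table of FPKM per gene. The submitters' processing notes name RSEM 1.3.3, STAR 2.7.8a, FastQC 0.11.8 and cutadapt 2.3, in no stated order. The genome build, annotation and strand setting are not given in the sources used here. The depth in reads is unknown, so no counting interval is given. Each library was divided by its median ratio to the geometric mean library, which gives the normalised FPKM. Features with a mean of at least 1 FPKM (6439 of 7127) were tested with limma 3.58.1 in R 4.3.3 on log2(normalised FPKM + 1), with 4 group means over the 8 libraries, a mean-variance trend and moderated error. There were 4 residual degrees of freedom, 6.39 after moderation. Tests were two-sided, and p-values were adjusted by Benjamini-Hochberg over all features in each of 5 comparisons. The script was tested on simulated data. The 36 genes, the 29 further pathway genes and the motifs were chosen with earlier results of these data known.

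All 36 genes are accounted for by role. Libraries and full statistics are given for up to 6 called genes in each direction and comparison, the largest by log2 difference if the replicates of the groups did not overlap and the higher group averaged 10 normalised FPKM or more. The regulators are always given, and of the further pathway genes the 3 largest. Replicate numbers in the titles were not used to pair the samples (correlation of same-numbered deviations -0.232 to 0.256 over pairs of groups). These correlations cannot show whether the samples were paired, since the ribosomal share also differed between replicates. Alternatives were other scalings (the deposited FPKM, quantile normalisation, TPM without ribosomal features), a pseudocount of 0.1, no filter, no trend, only the 4 libraries compared, a replicate block and leaving out each library. Promoters were read from the RefSeq R64 genome and annotation, in which all 36 genes were matched, with Biopython 1.88. Figures were drawn with matplotlib 3.10.9.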

Additional observations from a re-analysis of the deposited data

Results flagged for a closer look

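For 25 of the 36 genes the response to hygromycin B in Trm2KO differed from that in WT by the test of the difference itself, given here as the log2 response in Trm2KO minus that in WT (limma, adjusted p under 0.05 over all features). Over all features tested 30.6% differed upward and 33.9% downward, so a difference of this kind was common in these data. In sulfate activation and reduction the values were -1.82 for MET14, -1.26 for MET16, -1.16 for MET1, -0.83 for MET10 and 0.52 for MET5. In homocysteine, methionine and cysteine synthesis they were -2.13 for MET2, -1.53 for STR3, -0.80 for STR2, 1.15 for MET6 and 1.36 for CYS4. In the SAM cycle they were -2.83 for MHT1, -0.86 for SAM2, 0.63 for SAM4 and 0.82 for SAH1. The transporters gave -2.22 for MMP1, -1.21 for SUL1, -0.84 for MUP3, -0.69 for SEO1, 0.30 for OPT1 and 0.88 for MUP1, and the sulfatase BDS1 gave -0.56. The regulators gave -1.47 for MET32, -1.09 for MET31, -0.67 for MET30 and -0.52 for CBF1. The part of Geneticin, which the labels name for the knockout alone, was not tested.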

How the results depend on the processing

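The scaling of the libraries moved the counts most. On the FPKM as deposited the median of all features shifted to -0.26 (Trm2KO against WT, no drug), 0.62 (drug in WT), 0.36 (drug in Trm2KO), -0.53 (Trm2KO against WT, with drug) and -0.24 (difference of responses). Of all calls 14.1%, 85.6%, 78.1%, 16.6% and 30.1% were then upward, against 54.0%, 51.3%, 48.3%, 48.3% and 47.5% with scale factors. The features called numbered 163, 2550, 105, 2128 and 469, against 2771, 5071, 2778, 4970 and 4152 with scale factors. The 36 genes gave 0 higher, 2 lower and a median of -0.36 in the first comparison, 2 lower and a median of 1.06 in the second, 0 higher, 0 lower and 0.41 in the third, 0 higher and -1.02 in the fourth, and 0 higher, 6 lower and -0.75 for the difference of responses. Relative to these shifts the medians keep the sign of the main values. In the same order, TPM without ribosomal features shifted the median of all features to -0.14, 0.30, 0.19, -0.27 and -0.10, with 19.1%, 65.9%, 85.9%, 34.4% and 41.9% of calls upward. It gave 16 lower and a median of -0.25 in the first comparison, a median of 0.74 in the second, 1 lower and 0.24 in the third, and -0.75 in the fourth. Quantile normalisation gave medians of -0.44 in the fourth and for the difference of responses. Direction reversed on the FPKM as deposited for SAM1 (0.0444) and OPT1 (0.26) with the drug in WT, MET22 (0.22) and CYS4 (0.0353) with the drug in Trm2KO, and CBF1 (-0.18) and SAM3 (-0.19) between treated genotypes, and in TPM for MET22 (0.24 in WT, 0.0386 in Trm2KO) and SUL2 (0.26 in WT). The cause was not tested.

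Leaving out each library in turn gave 3 to 5 higher genes in untreated Trm2KO. With the drug in Trm2KO it gave 9 to 14 higher and 3 to 7 lower genes, with a median of -0.0482 to 0.0758. MUP1 with the drug in WT ran between -0.19 and 0.21 without 1 or the other treated WT library. The replicate block used numbers that are not known to pair the samples. It gave 20 higher and 9 lower genes with the drug in WT and 13 and 7 with the drug in Trm2KO. The counts were 4 and 9 in untreated Trm2KO, 9 and 22 between treated genotypes, and 7 and 17 for the difference of responses. A pseudocount of 0.1 changed 1 call (MET28 with the drug in WT). The precision is limited by 2 cultures a group.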
